A study of Mus musculus with 12 samples.

Results

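The collagen genes are the genes whose symbol is Col, a number, the letter a and a number, such as Col1a1. The deposited tables listed 29 of them among 14907 genes: 9 fibrillar, 6 network-forming, 3 of the beaded filament (collagen VI), 6 FACIT, 2 multiplexin, 1 transmembrane and 2 others, here Col7a1 and Col28a1. Of these, 24 could be tested: each had values in all 12 libraries and reached a group mean of 10 or more in some group.

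The libraries came from mesenchymal cells of the mouse small intestine, strain C57/Bl6, cultured to passage 3 and sorted on GFP, with 3 libraries in each of 4 groups. The groups were MyD88ko with LPS, MyD88ko untreated, wt with LPS and wt untreated. The LPS groups received 2 µg/ml of LPS from E. coli for 6 hours after overnight serum starvation. MyD88ko cells have the genotype label ColVIcre-MyD88F/F-RosamTmG, and wt cells have MyD88F/F-RosamTmG. By these labels all groups share the floxed Myd88 allele and the RosamTmG reporter. The wt label names no Cre, whereas the series' design text calls the wt cells ColVIcre+. As background, the RosamTmG reporter makes GFP after Cre has acted, and ColVI-Cre is driven by regulatory sequences of the mouse Col6a1 gene, itself a collagen. A wt label without Cre is thus at odds with sorting on GFP, and which of the descriptions is right was not tested. If the wt cells lack Cre, the deletion of Myd88 and the presence of Cre cannot be told apart. Replicates are numbered, with no word on whether each is its own animal, and p-values therefore measure the spread between these libraries, which may be technical. The library codes of untreated and LPS samples fall in separate series, so library series and treatment cannot be told apart.

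Collagens are built from 3 chains wound into a triple helix and are the main structural proteins of connective tissue. Fibrillar collagens form the fibres of the gut wall, type IV collagen forms the network of basement membranes, and type VI forms beaded microfilaments around cells. FACIT collagens bind to the surface of fibrils, and type VII forms the anchoring fibrils that tie an epithelium to the tissue beneath it. Mesenchymal cells make most of the fibrillar collagen of the intestine.

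Start-site windows from RefSeq (GRCm38.p6, 250 bases before to 50 after the start) were found for 20 of the 24 tested genes, as 22 windows. The 4 shown belong to both genes called in a comparison, Col7a1 and Col11a1, and to the neighbours Col4a1 and Col4a2. Capitals mark matches, on either strand, to the CCAAT box (CCAAT, or ATTGG on the other strand), the GC box (GGGCGG) and a loose form of the NF-kB site (GGG, any 5 bases, CC). The Col7a1 window is chr9:108953336-108953635 on the plus strand and the Col11a1 window is chr3:114030290-114030589 on the plus strand. The Col4a1 window is chr8:11312777-11313076 on the minus strand and the Col4a2 window is chr8:11312555-11312854 on the plus strand. All are written 5′ to 3′ along the gene.
Col7a1: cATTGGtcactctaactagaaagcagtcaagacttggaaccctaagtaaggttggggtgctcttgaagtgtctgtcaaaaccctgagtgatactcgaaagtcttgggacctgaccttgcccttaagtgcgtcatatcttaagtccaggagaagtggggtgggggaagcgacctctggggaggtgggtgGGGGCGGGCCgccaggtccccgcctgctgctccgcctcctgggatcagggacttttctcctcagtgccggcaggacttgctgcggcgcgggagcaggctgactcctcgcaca
Col11a1: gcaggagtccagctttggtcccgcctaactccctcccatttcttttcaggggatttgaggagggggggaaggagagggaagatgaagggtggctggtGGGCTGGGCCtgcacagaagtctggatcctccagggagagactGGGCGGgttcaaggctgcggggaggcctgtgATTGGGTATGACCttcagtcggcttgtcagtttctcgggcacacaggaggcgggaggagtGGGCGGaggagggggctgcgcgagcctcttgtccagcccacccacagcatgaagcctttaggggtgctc
Col4a1: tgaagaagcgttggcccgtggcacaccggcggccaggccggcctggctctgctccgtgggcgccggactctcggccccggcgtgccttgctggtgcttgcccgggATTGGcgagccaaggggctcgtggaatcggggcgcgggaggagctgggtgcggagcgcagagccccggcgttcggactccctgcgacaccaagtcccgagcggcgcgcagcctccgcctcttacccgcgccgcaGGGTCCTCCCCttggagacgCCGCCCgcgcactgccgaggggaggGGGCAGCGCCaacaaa
Col4a2: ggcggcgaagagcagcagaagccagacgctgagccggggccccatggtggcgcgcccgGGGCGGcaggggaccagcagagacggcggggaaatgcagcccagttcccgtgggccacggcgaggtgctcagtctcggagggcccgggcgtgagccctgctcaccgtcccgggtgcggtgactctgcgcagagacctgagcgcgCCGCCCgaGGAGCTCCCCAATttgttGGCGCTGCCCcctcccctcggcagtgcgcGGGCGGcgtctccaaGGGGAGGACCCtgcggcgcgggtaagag

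The GC box was found in 68.2% of the 22 collagen windows and in 35.7% of all 32851 windows of the table. The loose NF-kB site was found in 72.7% of the collagen windows and in 50.8% of all windows. The CCAAT box was in 40.9% against 37.4%, the TATA box (TATAAA) in 9.09% against 13.6%, and the AP-1 site (TGANTCA) in 4.55% against 7.81%. Median GC content was 60.7% in the collagen windows and 52.7% in all windows, and both G-rich motifs depend on base composition. In Col7a1 the loose NF-kB match at -62 overlaps the GC box at -61, and in Col11a1 the CCAAT match at -79 overlaps the loose NF-kB match at -76. The Col4a1 and Col4a2 start sites are 21 bases apart on opposite strands, so their windows overlap by 78 bases. A match describes letters in a window and says nothing of binding.

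Values are the authors' normalized read counts from 3′ mRNA libraries, in which reads come from the ends of transcripts. In such libraries a value depends little on transcript length, and ratios between genes are given on that basis. Totals of the normalized values per library were 4007573 to 4320551 in MyD88ko and 3599944 to 3948478 in wt, with no overlap between genotypes. Read depth per library was not estimated here. Myd88 itself had 24, 22 and 5 in MyD88ko with LPS and 14, 8 and 10 in MyD88ko untreated. In the wt groups it had 171, 204 and 213 with LPS and 99, 98 and 103 untreated. All 8 fibroblast markers were listed, and their sums did not overlap between genotypes at either treatment: 20028 to 26482 in MyD88ko with LPS, against 16711 to 18957 in wt with LPS, and 18417 to 24686 in MyD88ko untreated, against 12274 to 18207 in wt untreated. Single markers went opposite ways, since Pdgfra had 126, 158 and 73 in MyD88ko untreated, against 355, 611 and 314 in wt untreated, while Lum had 988, 2081 and 1487 in MyD88ko untreated, against 369, 961 and 386 in wt untreated. Epithelial markers (6 of 8 listed) summed to 394, 8 and 981 in wt untreated replicates 1, 2 and 3. Few genes made up these sums. In the same order Cldn4 had 213, 7 and 122, Krt19 166, 0 and 62, and Cdh1 3, 0 and 719. Krt18 had 1, 0 and 68, Epcam 11, 1 and 10, and Muc2 0 in each. Krt19 was also on the list of mesothelium markers. The epithelial sums were 4 to 27 in MyD88ko with LPS, 8 to 9 in MyD88ko untreated and 36 to 54 in wt with LPS. Cdh1 and Krt18 had no values in MyD88ko with LPS, nor had Krt18 in wt with LPS. The summed smooth-muscle and pericyte markers (6 of 6 listed) ran from 43343 to 52511 in MyD88ko with LPS, 35378 to 40099 in MyD88ko untreated, 36798 to 44062 in wt with LPS and 21847 to 24762 in wt untreated. Hepatocyte markers (3 of 4 listed) split by treatment, with sums of 4 to 19 in MyD88ko with LPS, against 112 to 170 in MyD88ko untreated, and 3 to 13 in wt with LPS, against 103 to 256 in wt untreated. Alb and Serpina3k were listed at 0 in all 6 LPS libraries. Each of these marker sums differed in some of the comparisons made for collagens below and overlapped in others. The part of the markers in those comparisons was not tested. In bulk samples, fewer cells of a type and less RNA per cell cannot be told apart.

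Collagen transcripts took 3.16%, 3.67% and 3.75% of the normalized total in MyD88ko with LPS and 2.24%, 2.77% and 2.63% in MyD88ko untreated. In wt they took 2.01%, 3.60% and 1.90% with LPS and 1.51%, 2.88% and 1.21% untreated. In both wt groups replicate 2 stood well above replicates 1 and 3. With LPS it fell within the range of the MyD88ko libraries, and untreated it lay above all 3 of them. Wt replicate 2 was the highest wt library in both treatments for 17 of the 24 tested collagens (70.8%), against 12.6% of all 12385 tested genes. MyD88ko replicate 1 was the lowest MyD88ko library in both treatments for 10 of 24 (41.7%), against 12.3% of all genes. In wt untreated, replicates 1 and 3 were low in collagen and had the higher epithelial sums, which rest on few genes. In wt with LPS, replicates 1 and 3 were also low in collagen, and the epithelial sums of that group were 36 to 54. The part of the epithelial transcripts in the collagen levels was not tested. Col1a1 and Col1a2 together made 73.8 ± 2.5% of the collagen total in MyD88ko with LPS, 70.1 ± 1.1% in MyD88ko untreated, 67.8 ± 1.1% in wt with LPS and 64.1 ± 1.5% in wt untreated (SD, n = 3 each).

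**Figure D1:**
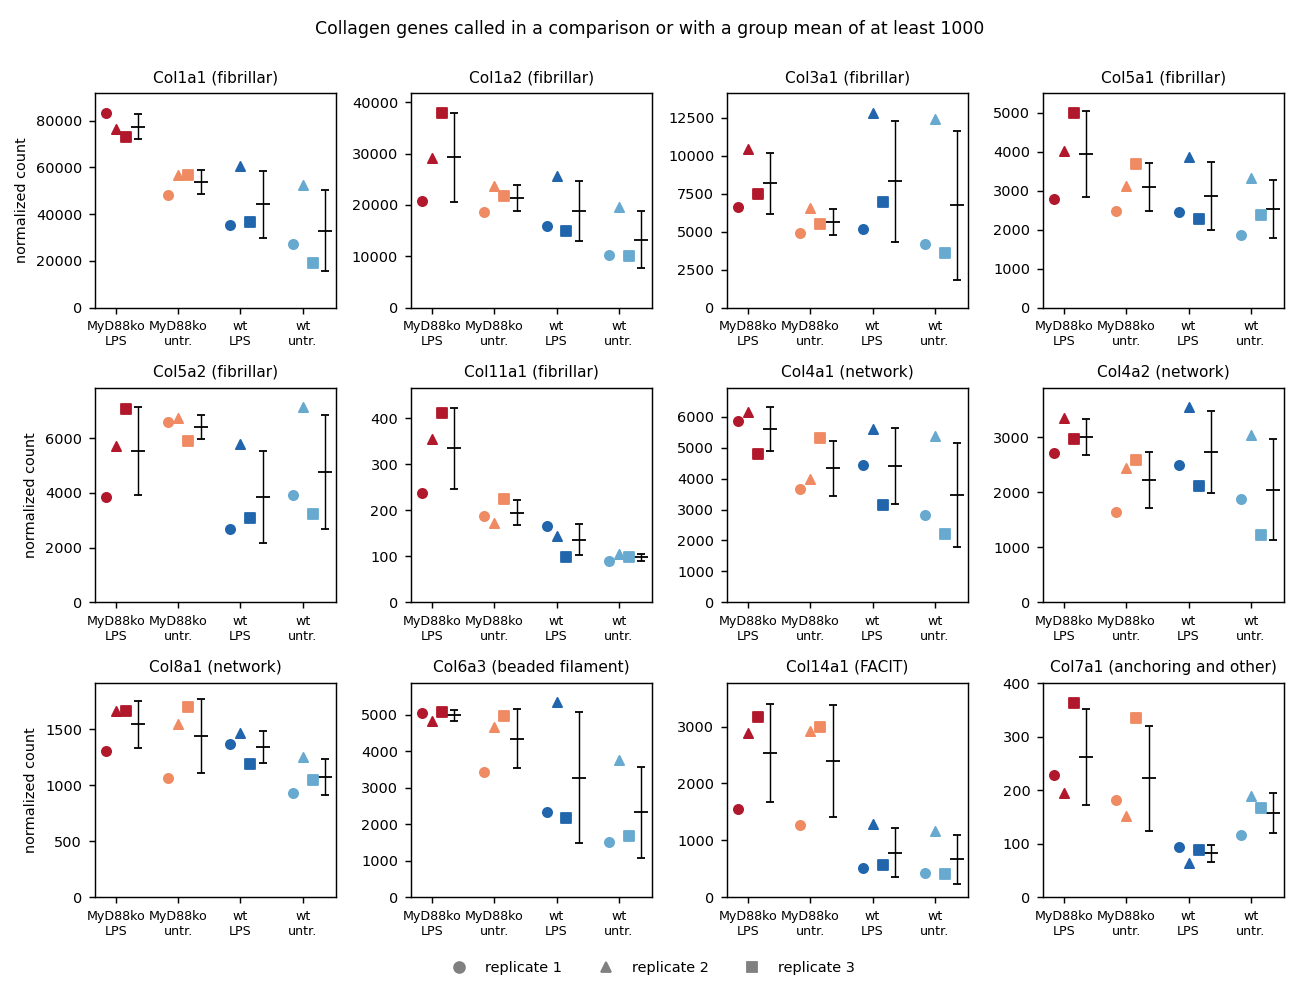
Normalized count (vertical axis, linear from 0) of the 12 collagen genes called in a comparison or with a group mean of at least 1000, by group. Symbols are libraries by replicate number, and the bar beside them is the mean with its SD (n = 3); wt replicate 2 (triangle) stands above the other wt libraries in most panels, while all Col14a1 values of MyD88ko lie at or above 1264, near the highest wt value of 1285.

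LPS in wt cells was followed by a call for 1 of the 24 tested collagens. Col7a1, the chain of anchoring fibrils, fell with LPS in wt, and no collagen rose. Called means a Benjamini-Hochberg adjusted p under 0.05 from limma over all 12385 genes; by this rule 9.66% of all genes fell and 9.55% rose. Most collagen folds nevertheless lay above 0: the median log2 fold change was 0.42 with 20 of 24 above 0, against 0.01 over all genes tested. The median was 0.66 without wt untreated replicate 2, 0.19 without wt untreated replicate 3 and 0.19 without wt LPS replicate 2. At an unadjusted p under 0.05, 2 collagens were higher, Col6a1 and Col6a2, as were 15.8% of all genes, and 1 was lower, as were 16.2%.

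Col7a1 (chromosome 9, 108953586 to 108984875, plus strand, mm10) had 94, 63 and 88 in wt with LPS, against 117, 190 and 166 in wt untreated. Every wt library with LPS was below every untreated one, as for 17.4% of all genes. The log2 fold change was -0.93 ± 0.31 (SE), which is 1.91-fold lower (limma adjusted p = 0.0386). The call was lost when wt untreated replicate 2 or 3 or any of the 3 wt LPS libraries was left out, at limma adjusted p = 0.058 to 0.143. In the authors' deposited table the fold was 0.521 with an adjusted p of 0.263, and no collagen passed 0.05 there.

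The type VI chains, which build beaded microfilaments, had the highest class median in wt with LPS apart from the 2 multiplexins, at 0.95 on the log2 scale for 3 genes. Col6a1 had 348, 801 and 315 in wt with LPS, against 149, 335 and 242 in wt untreated. The groups overlap because the highest untreated library, replicate 2, exceeded the lowest LPS library. The log2 fold change was 0.95 ± 0.38 (SE; limma adjusted p = 0.0955). The values of Col6a1, Col6a2 and, below, Col18a1 are shown outside the rule for named genes, chosen after they were seen. Col6a2 had 98, 383 and 126 in wt with LPS, against 56, 167 and 60 in wt untreated, with a log2 fold change of 1.02 ± 0.45 (limma adjusted p = 0.126). Col6a3 had 2333, 5344 and 2165 in wt with LPS, against 1525, 3771 and 1686 in wt untreated. For all 3 chains replicate 2 was the highest library in each group.

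Of the fibrillar chains, Col1a1 and Col1a2 form type I collagen, the main fibre protein. Col1a1 (chromosome 11, 94936224 to 94953042, plus strand) had 35191, 60610 and 36670 in wt with LPS, against 27011, 52324 and 19270 in wt untreated. Its log2 fold change was 0.51 ± 0.29 (limma adjusted p = 0.234), and the groups overlap. Col1a2 had 15840, 25559 and 14933 in wt with LPS, against 10255, 19587 and 9967 in wt untreated, and overlaps in the same way.
Col3a1, the chain of reticular fibres, had 5203, 12781 and 6937 in wt with LPS, against 4198, 12403 and 3627 in wt untreated. Col5a1, a chain of the type V collagen that regulates fibril width, had 2459, 3849 and 2271 in wt with LPS, against 1866, 3324 and 2380 in wt untreated. Col5a2, its partner chain, had 2696, 5787 and 3085 in wt with LPS, against 3925, 7124 and 3235 in wt untreated, and was the fibrillar chain with a log2 fold change below 0 (-0.30 ± 0.30). None of these differences passed the test, and in each gene the replicate 2 libraries were the highest of both groups.

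Of the network chains, Col4a1 and Col4a2 assemble into the type IV collagen of basement membranes. Col4a1 had 4453, 5609 and 3152 in wt with LPS, against 2832, 5364 and 2207 in wt untreated. Col4a2 had 2495, 3553 and 2118 in wt with LPS, against 1879, 3036 and 1227 in wt untreated. Col8a1, a short-chain network collagen, had 1367, 1469 and 1191 in wt with LPS, against 931, 1251 and 1045 in wt untreated. The groups overlap for all 3, with log2 fold changes of 0.32 to 0.47 that did not pass the test. Col18a1, whose C-terminal fragment is endostatin, was the 1 collagen with every wt LPS library above every untreated one, as for 17.4% of all genes. It had 163, 242 and 140 in wt with LPS, against 117, 132 and 120 in wt untreated. Its 3′ end overlaps Slc19a1 on the other strand, and since the sources used here do not say that counting used strand, reads of the pair may be mixed.

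The number of wt calls depended on replicate 2. Without wt untreated replicate 2, which was the highest untreated library for 21 of 24 collagens, 9 rose with LPS in wt (Col1a1, Col1a2, Col3a1, Col4a1, Col4a2, Col6a1, Col6a2, Col6a3 and Col15a1; 7.49% of all genes rose), and 0 fell, against 7.96% of all genes. Leaving out that library takes the highest values from one side, and when replicate 2 was left out of both wt groups, an alternative added after seeing the data, 0 rose and 0 fell, against 5.76% and 6.81% of all genes. Without wt untreated replicates 1 and 3, which hold the epithelial transcripts, 0 were called higher and 0 lower, against 4.54% and 3.34% of all genes, and the median collagen log2 fold change was -0.22. That fit has 1 wt untreated library, assumed to vary like the other groups.

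In MyD88ko cells, LPS was followed by 0 called collagens in either direction; 2.58% of all genes rose and 3.4% fell by limma. At an unadjusted p under 0.05, 1 collagen was higher (Col11a1) and 0 were lower, against 10.2% and 10.8% of all genes, and the authors' deposited table also called 0. The median log2 fold change was 0.35, with 20 of 24 above 0, against 0.00 over all genes, and 0.17 without MyD88ko LPS replicate 3. In 6 of 24 every LPS library lay above every untreated one (Col1a1, Col3a1, Col4a2, Col6a2, Col10a1 and Col11a1), as for 12.2% of all genes, and in 0 did every one lie below, as for 13.3%.

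Col1a1 had 83203, 76251 and 72836 in MyD88ko with LPS, against 47978, 56854 and 56726 in MyD88ko untreated. The groups do not overlap, and the log2 fold change was 0.53 ± 0.29 (limma adjusted p = 0.304). Col1a2 had 20695, 29133 and 37947 with LPS, against 18692, 23716 and 21790 untreated, and the groups overlap. Col3a1 had 6626, 10466 and 7491 with LPS, against 4883, 6550 and 5478 untreated. Col11a1, a minor fibrillar chain best known from cartilage, had 238, 355 and 412 in MyD88ko with LPS, against 188, 172 and 225 in MyD88ko untreated. Every LPS library lay above every untreated one, at a log2 fold change of 0.75 ± 0.25 (limma adjusted p = 0.0853). The call was made when MyD88ko LPS replicate 1, the lowest LPS library, was left out (limma adjusted p = 0.0381).
For the network chains, Col4a1 had 5851, 6160 and 4787 in MyD88ko with LPS, against 3673, 3991 and 5321 in MyD88ko untreated. Col4a2 had 2707, 3346 and 2961 with LPS, against 1639, 2441 and 2588 untreated, with no overlap. Col8a1 had 1302, 1666 and 1664 with LPS, against 1067, 1544 and 1700 untreated. None of these passed the test, and only Col4a2 of the 3 separated the groups.
Of the rest, Col6a3 had 5041, 4827 and 5090 with LPS, against 3428, 4657 and 4963 untreated. Col5a1 had 2797, 4017 and 4984 with LPS, against 2468, 3114 and 3686 untreated. Col5a2 had 3863, 5704 and 7059 with LPS, against 6597, 6719 and 5905 untreated. These groups overlap for Col5a1, Col5a2 and Col6a3. Col6a1 had 142, 321 and 330 with LPS, against 258, 296 and 201 untreated, at a log2 fold change of -0.01 ± 0.38. Col7a1 had 228, 194 and 364 with LPS, against 182, 151 and 335 untreated, at 0.27 ± 0.31 (limma adjusted p = 0.668).

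The difference between the LPS responses of MyD88ko and wt was tested directly, and 0 of 24 collagens were called by limma in either direction, as against 0.00807% of all genes in each. Col7a1 had the smallest p of the collagens, at 1.20 ± 0.43 on the log2 scale (95% interval 0.30 to 2.11; limma adjusted p = 0.394). For Col6a1 the difference was -0.96 ± 0.54 (95% interval -2.11 to 0.19; limma adjusted p = 0.610). The median difference of the 24 was -0.07, with 10 above 0. Leaving out 1 library changed its sign in 5 of 12 fits, with values from -0.39 without wt untreated replicate 2 to 0.21 without wt LPS replicate 2.

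**Figure D2:**
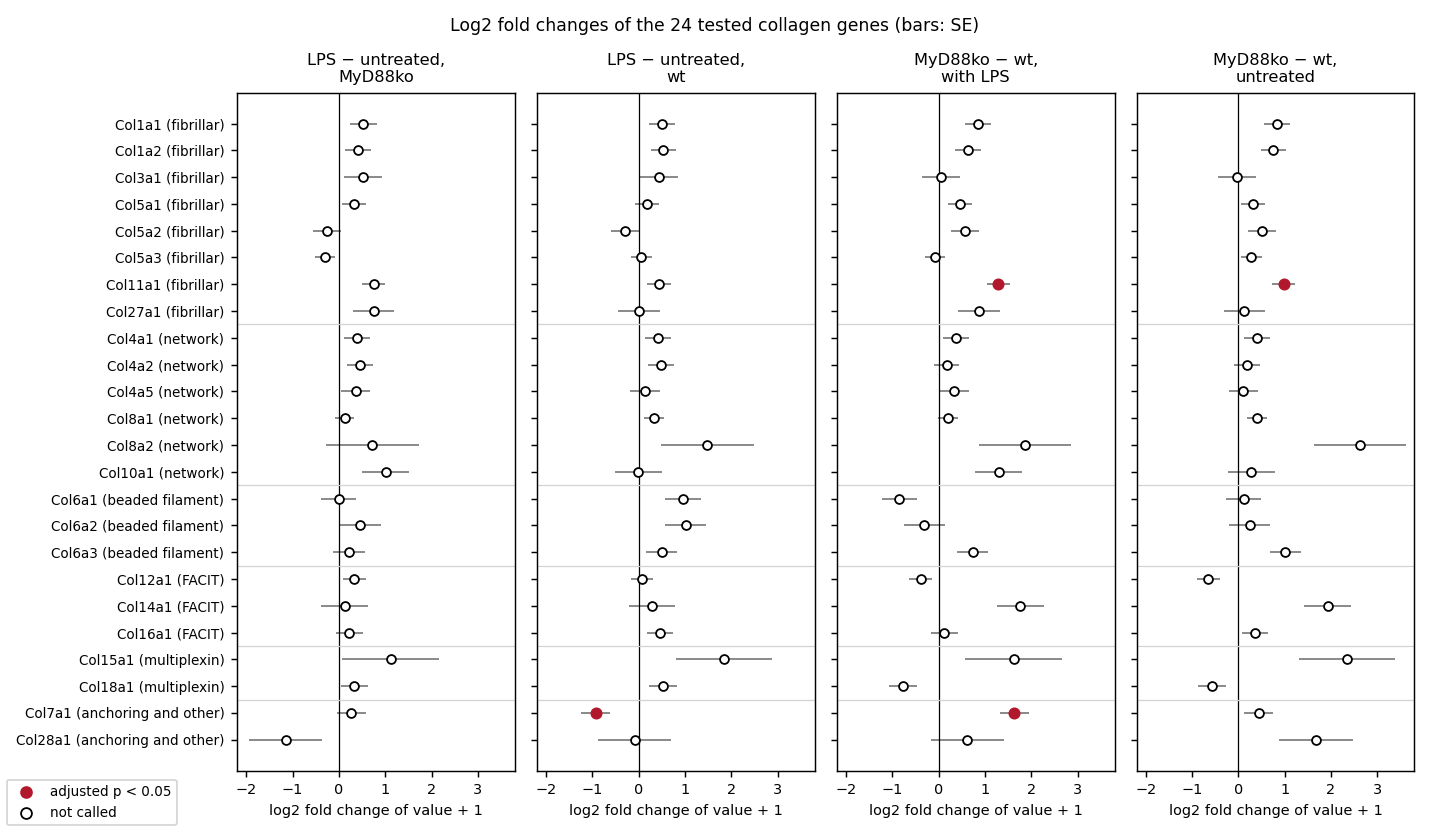
Log2 fold change of value + 1 with its SE (horizontal axis) for the 24 tested collagens, grouped by class, in 4 comparisons. Filled points passed a limma adjusted p under 0.05; Col7a1 is filled in the LPS comparison of wt at -0.93 and, with Col11a1, in the genotype comparison with LPS at 1.64 and 1.29.

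MyD88ko against wt in LPS-treated cells gave 2 called collagens, both higher: Col7a1 and Col11a1. By limma 0.452% of all genes rose and 1.04% fell. Across the 24 the median log2 difference was 0.51, with 19 above 0, against -0.00 over all genes. It was 0.77 without wt LPS replicate 2, 0.26 without wt LPS replicate 3 and 0.32 without MyD88ko LPS replicate 3. Every MyD88ko library lay above every wt library in 6 of 24 (Col1a1, Col7a1, Col10a1, Col11a1, Col14a1 and Col27a1), as for 7.54% of all genes, and below in 0 of 24, as for 8.31%.

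Col7a1 had 228, 194 and 364 in MyD88ko with LPS, against 94, 63 and 88 in wt with LPS, with no overlap. It was 3.11-fold higher (log2 1.64 ± 0.31, limma adjusted p = 0.0059), and the authors' deposited table gave a fold of 3.18 with an adjusted p of 0.0370. Col11a1 (chromosome 3, 114030540 to 114220718, plus strand) had 238, 355 and 412 in MyD88ko with LPS, against 165, 144 and 99 in wt with LPS. It was 2.44-fold higher (log2 1.29 ± 0.25, limma adjusted p = 0.0083), and the groups do not overlap. Without wt LPS replicate 3 or MyD88ko LPS replicate 2 it was not called (limma adjusted p = 0.0616 and 0.0529), and the authors' deposited table gave 0.449.

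Col14a1, a FACIT collagen on the surface of fibrils (chromosome 15, 55307750 to 55520803, plus strand), had 1550, 2893 and 3170 in MyD88ko with LPS, against 507, 1285 and 557 in wt with LPS. Every MyD88ko library lay above every wt library, and the fold was 3.39 on the log2(value + 1) scale. The log2 difference of 1.76 ± 0.50 did not pass limma's test (adjusted p = 0.147), whereas the authors' deposited table called it (adjusted p = 0.0419). Without wt untreated replicate 2, which enters this comparison through the shared spread, limma called it (adjusted p = 0.0383), as it did in a fit of the compared groups alone (adjusted p = 0.0327).
Col1a1 had 83203, 76251 and 72836 in MyD88ko with LPS, against 35191, 60610 and 36670 in wt with LPS. The groups do not overlap, at a log2 difference of 0.85 ± 0.29 (limma adjusted p = 0.187). Col6a1 had 142, 321 and 330 in MyD88ko with LPS, against 348, 801 and 315 in wt with LPS, at -0.85 ± 0.38 (limma adjusted p = 0.387). Leaving replicate 2 out of both wt groups, added after seeing the data, gave 5 called, all higher: Col1a1, Col6a3, Col7a1, Col11a1 and Col14a1. In that fit 0.425% of all genes were called higher. Wt LPS replicate 2 was the highest wt LPS library for 19 of 24 collagens, so leaving it out raises most of these differences.

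In untreated cells, MyD88ko against wt gave 1 called collagen, Col11a1, which was higher. By limma 0.791% of all genes rose and 1.09% fell. The median log2 difference of the 24 was 0.38, with 21 above 0, against 0.00 over all genes, and 0.61 without wt untreated replicate 2. Every MyD88ko library lay above every wt library in 3 of 24 (Col11a1, Col14a1 and Col28a1), as for 10.5% of all genes, and below in 1, Col18a1, as for 9.89%. This comparison shares its MyD88ko and wt untreated libraries with the LPS comparisons of each genotype.

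Col11a1 had 188, 172 and 225 in MyD88ko untreated, against 90, 105 and 99 in wt untreated. The groups do not overlap, and it was 1.97-fold higher (log2 0.98 ± 0.25, limma adjusted p = 0.0498). The call lay at the threshold and was lost when any wt untreated or MyD88ko untreated library was left out, and without wt LPS replicate 1 or 2 or MyD88ko LPS replicate 2, at limma adjusted p = 0.0544 to 0.252. The authors' deposited table gave an adjusted p of 0.564. Col14a1 had 1264, 2916 and 3001 in MyD88ko untreated, against 420, 1169 and 406 in wt untreated, with no overlap. The lowest MyD88ko library, replicate 1, was close above the highest wt library, replicate 2. Its log2 difference of 1.93 ± 0.50 was not called by limma (adjusted p = 0.0870), and the authors' deposited table called it at an adjusted p of 0.00175. Limma called it without wt untreated replicate 2 (adjusted p = 0.00653), without wt LPS replicate 2 (0.0447) and without MyD88ko untreated replicate 1 (0.0299).

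Of the other abundant collagens, Col1a1 had 47978, 56854 and 56726 in MyD88ko untreated, against 27011, 52324 and 19270 in wt untreated, and the groups overlap through wt replicate 2. Col6a3 had 3428, 4657 and 4963 in MyD88ko untreated, against 1525, 3771 and 1686 in wt untreated, and overlaps through the same library. Col3a1 had 4883, 6550 and 5478 in MyD88ko untreated, against 4198, 12403 and 3627 in wt untreated, where wt replicate 2 was the highest of all. Without wt untreated replicate 2, 6 collagens were called higher by limma (Col1a1, Col1a2, Col6a3, Col8a2, Col14a1 and Col15a1), against 1.21% of all genes. That library was the highest untreated wt library for 21 of 24 collagens, so leaving it out takes high values from the wt side only. Without both wt replicate 2 libraries the same 6 were called (1.03% of all genes), with unchanged log2 differences. The second fit is therefore not a separate result. Without wt untreated replicates 1 and 3 0 were higher and 0 lower, against 0.13% and 0.162% of all genes, and the median was -0.09.

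Ratios of chains from the same trimer were compared within libraries, without a test. Col5a1 over Col5a2 was 0.704 to 0.724 in MyD88ko with LPS, against 0.374 to 0.624 in MyD88ko untreated, and 0.665 to 0.912 in wt with LPS, against 0.467 to 0.736 in wt untreated. The LPS libraries of MyD88ko do not overlap its untreated ones, while those of wt do. Col4a1 over Col4a2 stayed between 1.49 and 2.24 over the 12 libraries. Col1a1 over Col1a2 ran from 1.92 to 4.02 and Col6a1 over Col6a2 from 1.03 to 4.03. A pair of ratios was chosen after values were seen, the first of them across collagen types. Col3a1 over Col1a1 was 0.0796 to 0.137 in the 6 MyD88ko libraries, against 0.148 to 0.237 in the 6 wt libraries. Col6a3 over Col6a1 was 13.3 to 35.5 in MyD88ko, against 6.67 to 11.3 in wt. The genotypes do not overlap in either ratio, at either treatment, including wt replicate 2. How many other gene pairs separate the genotypes in this way was not counted.

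**Figure D3:**
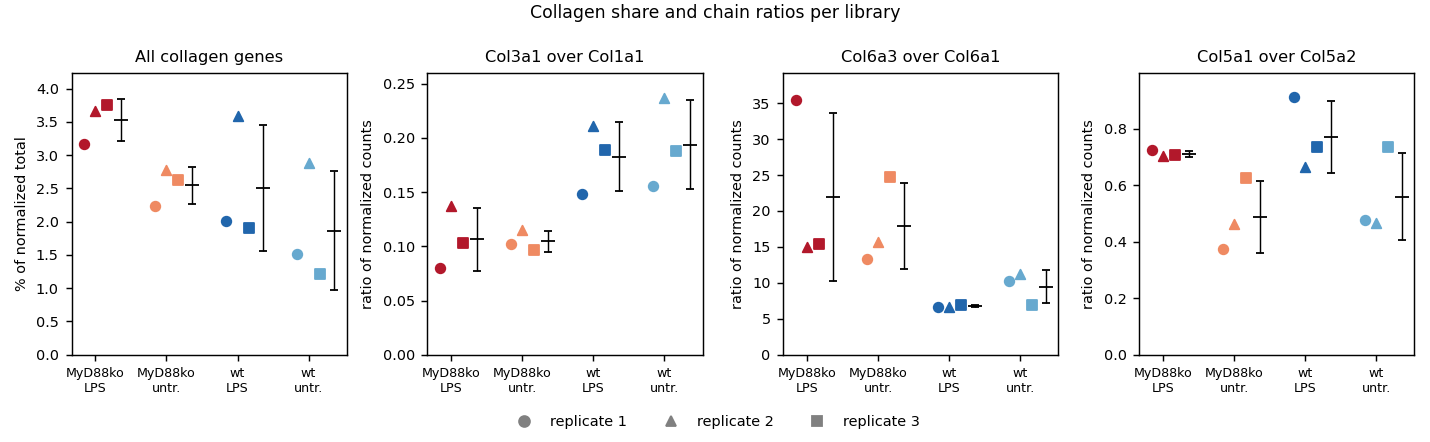
Share of collagen in the normalized total (first panel, %) and 3 ratios of normalized counts per library, by group, with symbols for replicate numbers and bars for mean and SD (n = 3). Col3a1 over Col1a1, a ratio chosen after values were seen, is at most 0.137 in MyD88ko and at least 0.148 in wt. The collagen share overlaps between genotypes.

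Neighbouring genes were set side by side over the 12 libraries. Col4a1 and Col4a2, which lie head to head and overlap by 22 bases in the files, were lowest together in wt untreated replicate 3 (2207 and 1227). Their highest libraries differed, MyD88ko LPS replicate 2 for Col4a1 (6160) and wt LPS replicate 2 for Col4a2 (3553). Col3a1 and Col5a2 lie tail to tail, with 24614 bases between them, and Col6a1 and Col6a2 lie 85161 bases apart on the same strand. For Col6a1 and Col6a2, wt LPS replicate 2 was the highest library for both (801 and 383). It was also the highest for collagens on other chromosomes, such as Col3a1 (12781), Col6a3 (5344) and Col16a1 (756). The shared peak is therefore not particular to neighbours. An antisense gene, Gm15418, overlaps the 3′ end of Col4a1.

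**Figure D4:**
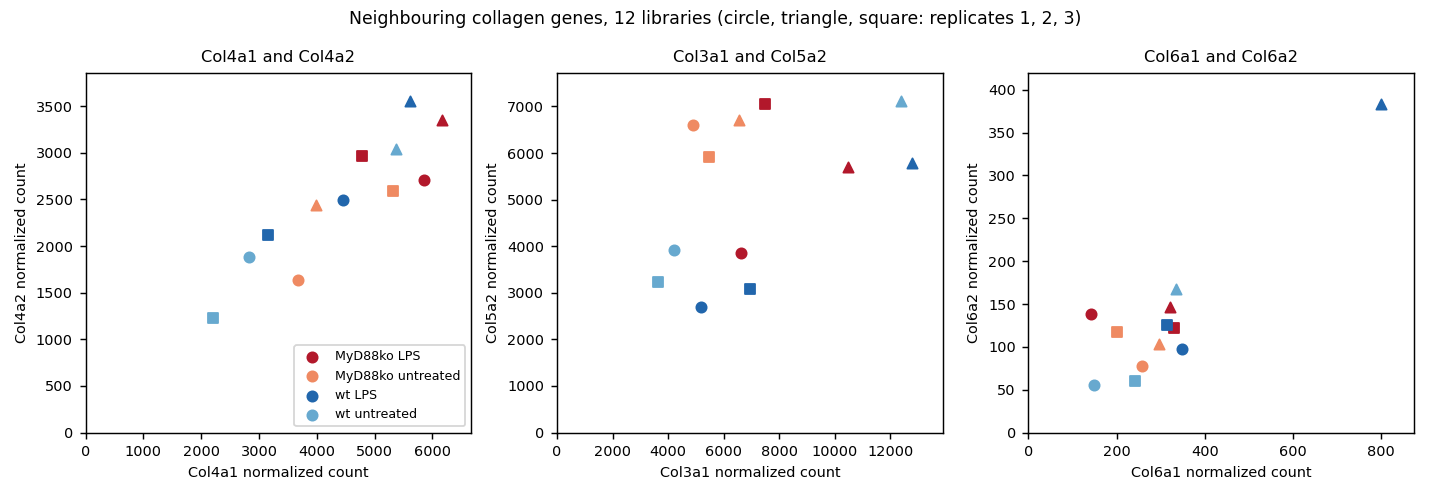
Normalized counts of 3 neighbouring pairs, 1 gene on each axis (both linear from 0), each point a library coloured by group, with circle, triangle and square for replicates 1, 2 and 3. The Col4a1 and Col4a2 values run together from 2207 and 1227 upward, and in the Col6a1 and Col6a2 panel wt LPS replicate 2 lies apart at 801 and 383.

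The other tested collagens were at lower levels. Group means were 327.3 to 411.3 for Col5a3, a fibrillar chain, and 27.7 to 62.0 for Col27a1. Among network chains they were 67.7 to 100.3 for Col4a5, 6.0 to 39.7 for Col8a2 and 11.3 to 28.7 for Col10a1, a chain of hypertrophic cartilage. The FACIT genes Col12a1 and Col16a1 had means of 346.3 to 574.0 and 389.0 to 563.0. Single libraries held 0 to 55 for Col15a1, a basement-membrane zone collagen, and 2 to 57 for Col28a1, where few counts limit the precision. Col10a1 overlaps Nt5dc1 on the other strand at its 3′ end. The 5 untested collagens, Col9a2, Col19a1, Col22a1, Col23a1 and Col24a1, were listed at 0 to 15 in any library; 4 of them had no values in 1 of the groups.

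Collagen-handling genes were counted from lists chosen with earlier results known. Of 13 tested prolyl and lysyl modifying enzymes, 2 rose and 0 fell with LPS in wt, where 9.55% of all genes rose and 9.66% fell. P4ha2, a collagen prolyl hydroxylase subunit, had 526, 444 and 426 in wt with LPS, against 186, 183 and 228 in wt untreated (log2 1.22 ± 0.26, limma adjusted p = 0.00228). Plod3, a lysyl hydroxylase, had 940, 839 and 760 in wt with LPS, against 392, 559 and 621 in wt untreated (limma adjusted p = 0.0255). Both separate the wt groups, with every LPS library higher, as for 17.4% of all genes. Plod3 was not called without wt untreated replicate 1 or wt LPS replicate 1 or 2. Of 12 chaperone and secretion genes, 2 rose and 1 fell in the same comparison. Sec24d and Mia2, which serve export from the endoplasmic reticulum, rose and Sec23a, a coat protein of the same step, fell with LPS in wt (limma adjusted p = 0.0156, 0.0421 and 0.0471). Sec24d had 410, 541 and 517 in wt with LPS, against 243, 235 and 289 in wt untreated. Mia2 had 154, 177 and 107 in wt with LPS, against 96, 89 and 72 in wt untreated. Sec23a had 478, 416 and 399 in wt with LPS, against 586, 734 and 583 in wt untreated. None of the 3, shown because they were called, overlaps between the wt groups, as for 17.4% of all genes in each direction. Sec24d was not called without wt untreated replicate 2 or wt LPS replicate 2 or 3; Mia2 and Sec23a were lost in 8 and 10 of the 12 fits that left out a library. In MyD88ko, where 2.58% of all genes rose with LPS and 3.4% fell, 0 of 13 modifying enzymes were called and 1 of the 12 secretion genes rose, Mia2 (156, 172 and 201 in MyD88ko with LPS, against 79, 96 and 79 in MyD88ko untreated; limma adjusted p = 0.0151), a call lost without MyD88ko untreated replicate 1 or 3. MyD88ko against wt gave 0 calls of these 12 at either treatment, where 0.452% of all genes rose and 1.04% fell with LPS, and 0.791% rose and 1.09% fell untreated.

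Of 6 tested procollagen-processing enzymes, 1 rose with LPS in wt, against 9.55% of all genes: Adamts14 (72, 136 and 68 in wt with LPS, against 27, 47 and 34 in wt untreated; limma adjusted p = 0.0188), except without wt untreated replicate 1 or wt LPS replicate 2. Tll1, a procollagen C-proteinase relative, was the 1 of the 6 higher in MyD88ko, at both treatments, against 0.452% of all genes with LPS and 0.791% untreated. It had 324, 356 and 549 in MyD88ko with LPS, against 170, 108 and 199 in wt with LPS (log2 1.37 ± 0.25, limma adjusted p = 0.00461). It had 491, 468 and 412 in MyD88ko untreated, against 216, 183 and 191 in wt untreated (limma adjusted p = 0.0119; not called without MyD88ko untreated replicate 2 or 3). Every MyD88ko library lay above every wt library at both treatments, as for 7.54% of all genes with LPS and 10.5% untreated. Of 6 collagen receptors and uptake genes, 1 fell with LPS in wt, against 9.66% of all genes. Mrc2, which takes up collagen fragments, had 42, 48 and 16 in wt with LPS, against 124, 207 and 46 in wt untreated (log2 -1.70 ± 0.46, limma adjusted p = 0.0156). The groups overlap through wt untreated replicate 3, and it was not called without wt untreated replicate 1 or 2 or wt LPS replicate 3. Itga1, a collagen-binding integrin chain, was the 1 of the 6 higher in MyD88ko untreated (0.791% of all genes), with 372, 415 and 319 there, against 188, 252 and 163 in wt untreated (limma adjusted p = 0.0403), a call lost in 8 of the 12 fits that left out a library. P4ha3, 1 of the 13 modifying enzymes, was also higher in MyD88ko untreated (296, 339 and 336 in MyD88ko untreated, against 160, 213 and 129 in wt untreated; limma adjusted p = 0.0388), a call lost in 6 of those fits.

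Of 21 collagen-binding matrix genes, 2 rose with LPS in wt, a share near the 9.55% of all genes. Sparc, a collagen-binding secreted protein, had 21340, 38681 and 28552 in wt with LPS, against 12620, 21133 and 11399 in wt untreated (log2 0.98 ± 0.25, limma adjusted p = 0.00867; not called without wt LPS replicate 2). Lamc1, a laminin chain, had 361, 518 and 265 in wt with LPS, against 178, 219 and 99 in wt untreated (limma adjusted p = 0.00562). The call of each was also lost without wt untreated replicates 1 and 3. In LPS-treated cells 2 of the 21 were lower in MyD88ko, against 1.04% of all genes. Lama4, a basement-membrane laminin chain, had 19, 30 and 7 in MyD88ko with LPS, against 163, 190 and 68 in wt with LPS (log2 -2.92 ± 0.47, 7.58-fold lower, limma adjusted p = 0.00172). Tgfbi, a collagen-binding matrix protein, had 87, 72 and 51 in MyD88ko with LPS, against 230, 379 and 151 in wt with LPS (limma adjusted p = 0.0431), a call lost in 7 of the 12 fits that left out a library. Nid2, which links laminin and type IV collagen, was the 1 of the 21 lower in MyD88ko untreated (1.09% of all genes), with 155, 130 and 90 there, against 269, 357 and 241 in wt untreated (limma adjusted p = 0.0323), except without wt untreated replicate 1 or 2 or MyD88ko untreated replicate 2 or 3. The difference between the LPS responses was called for 0 of these genes.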

How the data were processed

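Per the labels' protocols, RNA was made into QuantSeq 3′ mRNA libraries and read on an Ion Proton. Tools given in the submitters' processing notes are Bowtie2, TopHat2 and DESeq, and the build is mm10; versions and roles are not given in the sources used here. There are 4 tables, deposited by the authors. Their expression values are scores: counts per gene normalized by the authors and rounded to whole numbers. The same deposited tables give the authors' p-value and adjusted p-value, and a deposited ratio (fold) of group means after adding 1. Of 166719 values given in 2 tables, 0 differed. Whether counting used strand is not given in the sources used here.

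From these, log2(value + 1) was fitted with limma 3.58.1 in R 4.3.3 (limma-trend, robust), in a single fit of all 12 libraries; fold changes of low genes are drawn toward 1 by the added 1. The 12385 genes tested had values in all 12 libraries and a group mean of 10 or more in some group. Tests were two-sided, and a call is an adjusted p under 0.05 (Benjamini-Hochberg, all tested genes). The script was tested on simulated data. Values in every library are given for collagens called in a comparison or with a group mean of at least 1000; of the lists, up to 3 called genes of smallest p per comparison. Members and lists were chosen with earlier results of these data known. Alternatives were other scalings, filters, pseudocounts, voom, a fit without trend, a fit of the compared groups, a replicate block and leaving out libraries; leaving out both wt replicate 2 libraries was added after seeing the data.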

Additional observations from a re-analysis of the deposited data

How the results depend on the processing

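Counts of called collagens were given as main values of 1 (LPS in wt), 0 (LPS in MyD88ko), 1 (MyD88ko against wt, untreated), 2 (the same with LPS) and 0 (difference of LPS responses). Leaving out each library in turn gave ranges of 0 to 9, 0 to 1, 0 to 6, 1 to 3 and 0 to 0. LPS in wt gave 0 without trend, 0 with voom, and 0 without wt untreated replicates 1 and 3. MyD88ko against wt untreated gave 0 with quantile normalization, 0 without trend, 0 with voom, 0 with no low-value filter, 0 with a pseudocount of 0.5, and 0 without wt untreated replicates 1 and 3. MyD88ko against wt with LPS gave 0 without trend. Without both wt replicate 2 libraries, added after seeing the data, the counts were 0 (LPS in wt), 6 (untreated) and 5 (with LPS). In the genotype comparisons this takes high collagen values from the wt side only. Voom moved the median of all genes to -0.14 untreated and -0.13 with LPS in the genotype comparisons. Of 24 alternatives, Col7a1 was called in 23 and Col11a1 in 21 for MyD88ko against wt with LPS, Col7a1 in 15 for LPS in wt, and Col11a1 in 7 for MyD88ko against wt untreated.

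Same-numbered libraries correlated at 0.059, 0.171 and 0.058 between the wt groups, and at 0.125, 0.037 and -0.050 between the MyD88ko groups. The value for MyD88ko replicate 3 was below 0, so the numbers were not taken to pair the samples. In wt each library correlated best with its own number, a hint from the data only. Between genotypes, same-numbered libraries correlated at 0.094, 0.048 and -0.028 untreated and at 0.036, 0.034 and -0.114 with LPS. The replicate block gave each number 1 effect shared by both genotypes, so pairing within a genotype was not fitted. With a replicate block, 3 collagens were called for LPS in wt (Col6a1 and Col6a2 higher, Col7a1 lower; 9.62% of all genes higher, 9.67% lower) and 0 for LPS in MyD88ko (2.75% and 3.42%). For MyD88ko against wt it called 1 higher untreated (Col14a1; 0.904% of all genes) and 3 higher with LPS (Col7a1, Col11a1 and Col14a1; 0.525%). The 3 libraries a group and the unknown depth of each limit the precision, and the cause of these shifts was not tested.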
